A study of Homo sapiens with 16 samples.

Results

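MI-2 was compared directly with z-VRPR-fmk in HBL-1 and TMD8, established human lymphoma lines. Both belong to diffuse large B cell lymphoma (DLBCL) of the ABC type, named for its likeness to activated B cells. All arrays of the MI-2 and z-VRPR-fmk groups were taken, 8 of the 16 in the series. They were 6 MI-2 arrays, numbered 1 to 3 in each line, and 2 z-VRPR-fmk arrays, numbered 4 in each line. The vehicle arrays of the same lines, numbered 1 to 4, did not enter the contrast and are given beside it. RNA of every group was taken after 8 h and hybridised to Illumina bead arrays. The sources used here give neither doses nor what the vehicle was made of. No genotype change or second agent is named for any group. Separate cultures are not named for replicate arrays. All p-values therefore rest on the spread among arrays, part or all of which may be technical.

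MALT1 is a protease and scaffold protein that, bound to BCL10 in the CBM complex, carries B cell receptor signals to the kinase IKK and to NF-kB. ABC-type DLBCL is known for chronic activity of this pathway. The MALT1 protease also cuts brakes on inflammatory mRNAs and signals, among them the ribonuclease Regnase-1 (gene ZC3H12A), A20 (TNFAIP3) and CYLD. MI-2 is a small molecule that inhibits MALT1, and z-VRPR-fmk is a substrate-like peptide with a reactive fluoromethylketone end that blocks the protease site.

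Across the 8 arrays, median signals were 82.5 to 93.2 and 34.1% to 40.1% of probes were detected. Of 6 B cell markers, 5 were detected on all 8 arrays, MS4A1 and CD79A among them, and PAX5 on 4. The 3 listed plasma cell markers, SDC1, PRDM1 and XBP1, were also detected on all 8. Of the listed T cell, NK cell, myeloid, erythroid, epithelial and fibroblast markers that were measured, none was detected on all 8. Their detection ranged from 1 of the 8 arrays for HBB to 6 for CD2, with EPCAM on 5. Measured means kept by the filter, which asks for detection on 3 or more arrays of the series. The measured ones numbered 2 of 5 T cell, 0 of 4 NK cell, 2 of 5 myeloid, 1 of 3 erythroid, 2 of 4 epithelial and 2 of 4 fibroblast markers. For the measured epithelial markers EPCAM and CDH1, linear levels were summed and the log2 of the sum taken. It was 7.62 to 9.35 on MI-2 arrays and 8.52 to 9.36 on z-VRPR-fmk arrays. The part of these markers in the results was not tested. Levels are normalized log2 intensities, and every difference is a log2 difference, the mean over the lines of MI-2 minus z-VRPR-fmk unless another is named, with its standard error (SE) from limma.

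No gene passed. Of 17584 genes tested with limma, 0 (0%) had a Benjamini-Hochberg adjusted p under 0.05, and the smallest adjusted p was 0.125. At an unadjusted p under 0.05, 412 genes (2.34%) were higher and 606 (3.45%) lower with MI-2 than with z-VRPR-fmk, where 879.2 of all genes would be expected in both directions together. The median 95% interval reached 0.38 to either side of the estimate, so a gene that did not pass may still differ between the compounds. The 3 MI-2 arrays all lay above the z-VRPR-fmk array in both lines for 1132 genes (6.44%), and all below it for 1367 (7.77%). The z-VRPR-fmk array lay below all 7 other arrays of its line, vehicle included, in both lines for 309 genes (1.76%), and above them for 341 (1.94%).

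Compound and label number coincide in this design and cannot be told apart within the 8 arrays. The vehicle arrays carry all 4 numbers, so the same contrast by number was taken among them. Vehicle arrays 1 to 3 all lay above vehicle array 4 in both lines for 1035 genes (5.89%) and all below it for 1375 (7.82%). That vehicle contrast gave 0 genes at an adjusted p under 0.05 and 960 at an unadjusted p under 0.05. Its absolute difference was over 1 for 25 genes, against 14 genes for MI-2 minus z-VRPR-fmk. Across the 17584 genes, the MI-2 minus z-VRPR-fmk difference correlated with the vehicle 1 to 3 minus vehicle 4 difference with Pearson's r of 0.452 and Spearman's rho of 0.39. No array enters both differences, but arrays of one number may share a batch, and genes are not independent replicates. With line and number together as a replicate block, which sets each compound against the vehicle array of its own number, 0 genes passed and 632 had an unadjusted p under 0.05. This block-adjusted difference and the vehicle arrays numbered 4 are therefore given beside the genes below. For 188 genes both contrasts had an unadjusted p under 0.05 with the same sign.

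**Figure D1:**
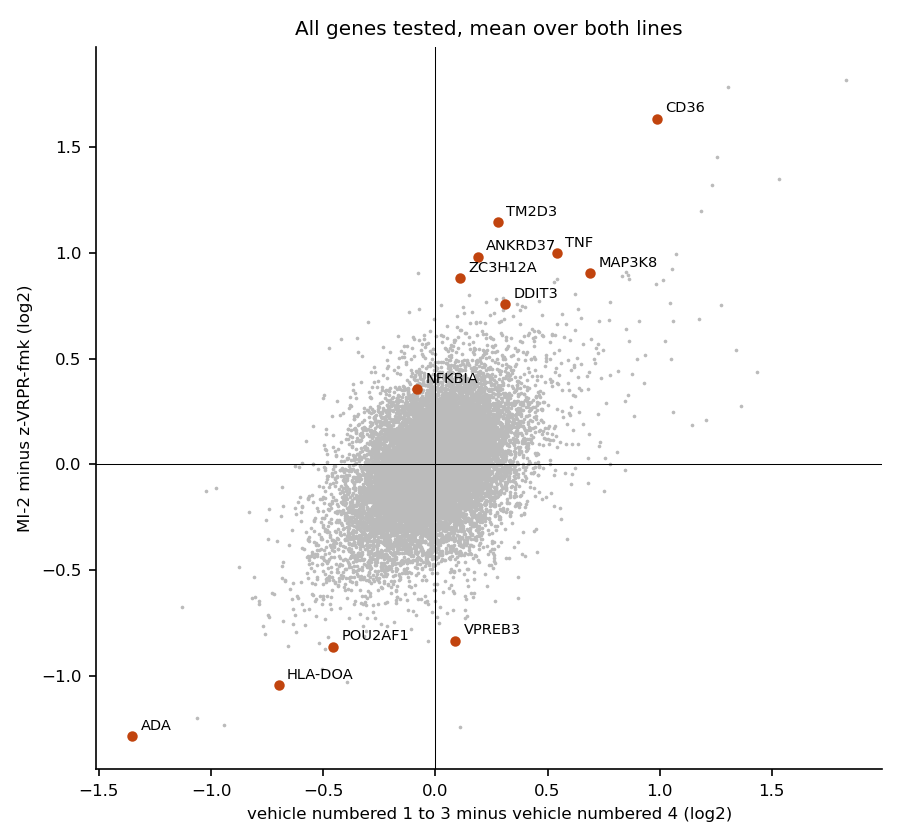
Each grey point is one of the 17584 genes tested: the vertical axis is MI-2 minus z-VRPR-fmk and the horizontal axis is vehicle numbered 1 to 3 minus vehicle numbered 4, both in log2 and averaged over the lines, with named genes in orange. The cloud is tilted (r = 0.452), ADA and CD36 lie far out on both axes, and TM2D3, ANKRD37, ZC3H12A and VPREB3 lie far out mainly on the vertical one.

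TM2D3, ANKRD37, ZC3H12A and CD36 stood low on the z-VRPR-fmk arrays against every other array of their line. TM2D3, a membrane protein of the TM2 domain family, was in HBL-1 at 10.54, 10.73 and 10.53 with MI-2, at 9.62 with z-VRPR-fmk, and between 10.32 and 10.45 on the vehicle arrays. Its TMD8 values were 10.34, 10.48 and 10.38 with MI-2, 9.09 with z-VRPR-fmk, and 9.94 to 10.50 with vehicle. The z-VRPR-fmk array lay below every other array of its line, and the MI-2 values lay above the vehicle values in HBL-1 and within their range in TMD8. The difference was 1.14 (SE 0.144, 95% interval 0.83 to 1.46), or 2.21-fold, with an adjusted p of 0.125 from limma. A second TM2D3 probe gave 1.01. The vehicle number contrast was 0.28 for this gene, and the block-adjusted difference was 0.86.

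ANKRD37, an ankyrin repeat protein known as a target of the hypoxia-inducible factor HIF-1, also had the z-VRPR-fmk array lowest in each line. It was at 7.50, 7.6 and 7.45 on the HBL-1 MI-2 arrays and at 6.58 on the z-VRPR-fmk array, with vehicle between 7.10 and 7.46. In TMD8 the MI-2 arrays were at 7.18, 7.30 and 7.56, the z-VRPR-fmk array at 6.32 and the vehicle arrays between 7.35 and 7.65. No z-VRPR-fmk value reached the lowest MI-2 or vehicle value of its line. The difference was 0.98 (SE 0.147, adjusted p = 0.158), the vehicle number contrast 0.19 and the block-adjusted difference 0.79.

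ZC3H12A encodes Regnase-1, which degrades inflammatory mRNAs, is cut by MALT1 and is itself an NF-kB target. In HBL-1 it was at 7.65, 7.69 and 7.47 with MI-2, at 6.79 with z-VRPR-fmk and at 7.18 to 7.41 with vehicle. The TMD8 levels were 7.99, 8.14 and 8.30 with MI-2, 7.20 with z-VRPR-fmk and 7.78 to 8.17 with vehicle. The z-VRPR-fmk arrays were again the lowest of both lines. The difference was 0.88 (SE 0.145, 95% interval 0.56 to 1.2, adjusted p = 0.258), or 1.84-fold. Vehicle 1 to 3 minus vehicle 4 was 0.11, and the block-adjusted difference was 0.77.

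CD36, a scavenger receptor and fatty acid transporter, had a larger difference, 1.63 (SE 0.233, adjusted p = 0.131), or 3.1-fold. It was at 7.22, 7.50 and 7.10 on the HBL-1 MI-2 arrays, against 5.04 on the z-VRPR-fmk array. The TMD8 values were 9.98, 9.94 and 9.98 with MI-2, against 8.94 with z-VRPR-fmk. The vehicle array numbered 4 stood low as well: 5.63 in HBL-1, where the other vehicle arrays were at 6.96 to 7.24, and 9.56 in TMD8, where they were at 10.03 to 10.14. The vehicle number contrast was 0.99, and the block-adjusted difference was 0.65. The difference was 2.24 in HBL-1 and 1.03 in TMD8, each resting on a single z-VRPR-fmk array. Without the TMD8 z-VRPR-fmk array the contrast is the HBL-1 difference alone.

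When the vehicle arrays entered the estimate of the spread but not the contrast, 4 genes (0.0227%) passed the adjusted threshold. They were TM2D3 (adjusted p = 0.00652), ANKRD37 and ZC3H12A (0.025 each), all higher with MI-2, and PTPRU, described below. CD36 had an adjusted p of 0.136 in that fit. The fit takes no account of array numbers, and with the replicate block on the same 16 arrays none of the 4 passed (adjusted p = 0.9998 for each). The promoters of 2 of the 3 higher genes are shown because these genes stood low with z-VRPR-fmk in both lines, and NF-kB and hypoxia response motifs were searched because ZC3H12A is a known target of NF-kB and ANKRD37 of HIF-1. They come from RefSeq on GRCh38.p14 and run from 250 bases before to 50 bases after the annotated start, on the gene's strand.
TM2D3: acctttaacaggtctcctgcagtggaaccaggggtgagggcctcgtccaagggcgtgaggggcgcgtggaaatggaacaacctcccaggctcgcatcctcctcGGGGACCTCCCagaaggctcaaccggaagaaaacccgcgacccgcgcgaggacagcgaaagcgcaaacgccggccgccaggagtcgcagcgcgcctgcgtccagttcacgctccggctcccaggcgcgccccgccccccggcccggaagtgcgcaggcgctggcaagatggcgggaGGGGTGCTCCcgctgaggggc
ANKRD37: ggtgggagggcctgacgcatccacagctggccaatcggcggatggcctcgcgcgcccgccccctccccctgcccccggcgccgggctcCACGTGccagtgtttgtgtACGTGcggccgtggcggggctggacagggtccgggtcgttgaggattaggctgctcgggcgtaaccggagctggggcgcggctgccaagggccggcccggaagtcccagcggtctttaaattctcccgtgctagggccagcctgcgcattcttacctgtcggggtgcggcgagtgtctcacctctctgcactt
The TM2D3 window is chr15:101652332-101652631 on the minus strand, and its capitals mark matches to the NF-kB consensus site on either strand, which overlap in the first run. It also held 3 matches to the hypoxia response core, as many as the ANKRD37 window, which held 0 NF-kB matches. Such a match stood in 11.3% of all 35116 promoters of this length and in 18 of the 44 promoters found for the NF-kB target list (40.9%). The ANKRD37 window is chr4:185396591-185396890 on the plus strand, and its capitals mark the hypoxia response core, ACGTG or GCGTG on either strand, of which the first run holds an overlapping pair. That core stood in 48.4% of all promoters. The ZC3H12A window (chr1:37474330-37474629, plus strand) held neither motif. A match describes letters and not a bound site, and a window without one says nothing of the factor.

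**Figure D2:**
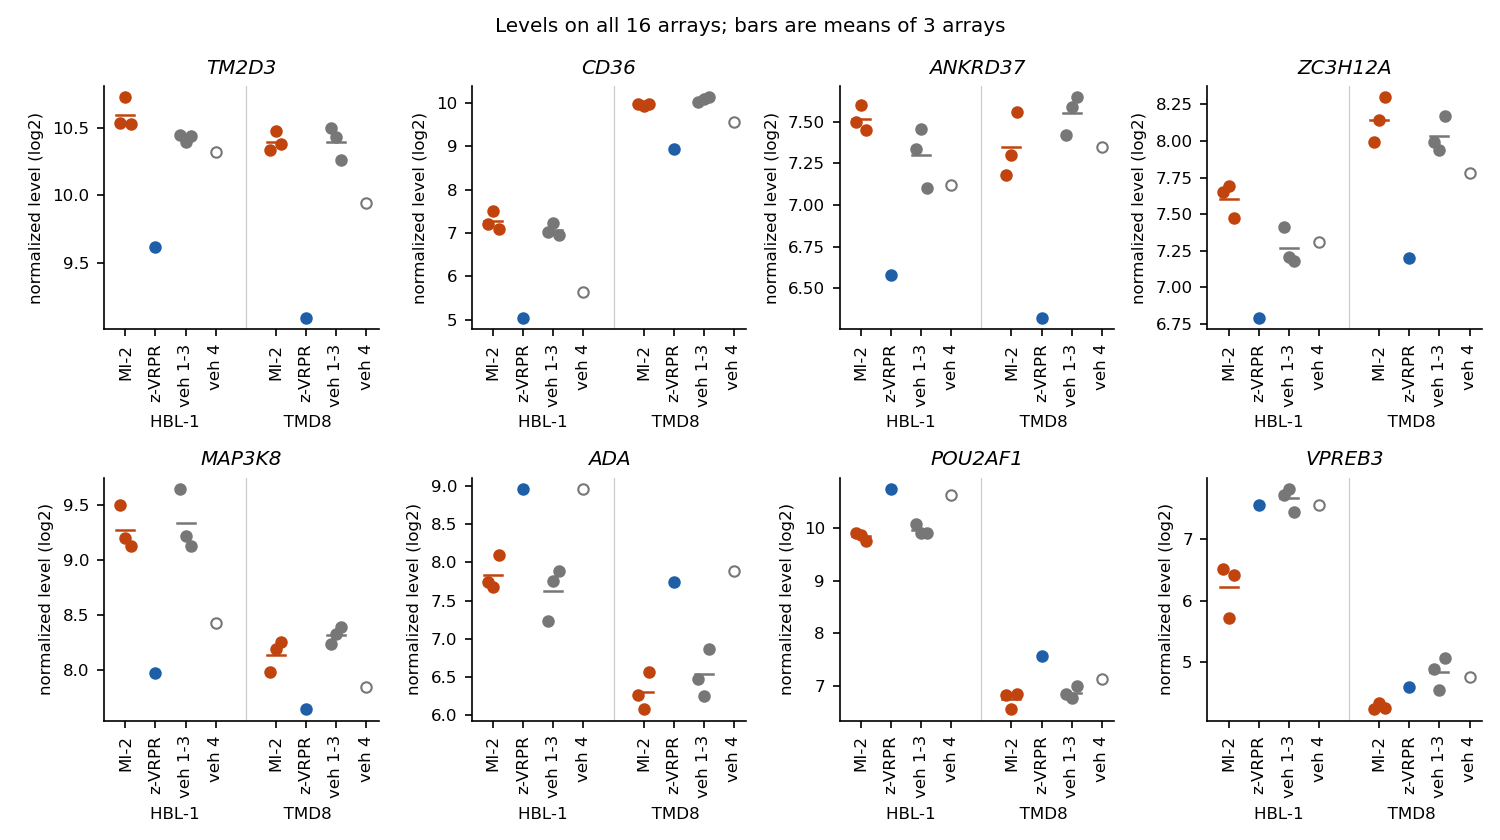
Normalized log2 levels of 8 genes on all 16 arrays, with one point per array in the order MI-2 (orange), z-VRPR-fmk (blue), vehicle 1 to 3 (grey) and vehicle 4 (open grey) for HBL-1 and then TMD8, and bars at the mean of 3 arrays. For TM2D3, ANKRD37 and ZC3H12A the z-VRPR-fmk point is the lowest of its line, for ADA it lies beside vehicle 4, and for VPREB3 the MI-2 points are the lowest.

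By the same rule 6 further genes were named as higher with MI-2, none past the threshold. MAP3K8, a kinase (TPL2) that links NF-kB to MAP kinase signalling, was at 9.50, 9.20 and 9.13 with MI-2 and 7.97 with z-VRPR-fmk in HBL-1. TMD8 had 7.98, 8.19 and 8.25 with MI-2 and 7.64 with z-VRPR-fmk. Vehicle array 4 was at 8.43 in HBL-1 and 7.84 in TMD8, below the other vehicle arrays of each line. Its difference was 0.90 (SE 0.195), against 0.69 for the vehicle number contrast and 0.21 after block adjustment. PSMD11, a subunit of the proteasome's regulatory particle, differed by 0.73 (block-adjusted 0.43), and TGFBRAP1, a partner of the TGF-beta receptor, by 0.78 (0.48). ZBP1, a sensor of Z-form nucleic acid, differed by 0.88 (0.33), and the transcript listed as HS.583888 by 0.90 (0.98). RNF122, a RING-type ubiquitin ligase, differed by 0.66 but by 0.080 after block adjustment.

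Among the genes lower with MI-2, ADA, the adenosine deaminase of purine breakdown, had the smallest p. It was at 7.74, 7.68 and 8.10 on the HBL-1 MI-2 arrays, against 8.97 with z-VRPR-fmk and likewise 8.97 on vehicle array 4. TMD8 had 6.26, 6.07 and 6.56 with MI-2, against 7.74 with z-VRPR-fmk and 7.89 on vehicle array 4. The other vehicle arrays were at 7.23 to 7.89 in HBL-1 and 6.25 to 6.87 in TMD8, so the high values sat on all 4 arrays numbered 4. The difference was -1.29 (SE 0.179, adjusted p = 0.131), the vehicle number contrast -1.35, and the block-adjusted difference 0.066.

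POU2AF1, the B cell coactivator OCA-B, was lower with MI-2 by the same measure and kept part of its difference. It was at 9.89, 9.86 and 9.75 with MI-2 and 10.74 with z-VRPR-fmk in HBL-1, where vehicle array 4 was at 10.62 and the others at 9.90 to 10.07. TMD8 had 6.84, 6.56 and 6.86 with MI-2 and 7.57 with z-VRPR-fmk, where vehicle array 4 was at 7.13 and the others at 6.77 to 7.0. The z-VRPR-fmk arrays were the highest of both lines. The difference was -0.86 (SE 0.143, adjusted p = 0.258), with -0.46 for the vehicle number contrast and -0.40 after block adjustment.

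The 8 other genes named as lower, none past the threshold, varied in how far the vehicle number contrast matched their difference. SNTB1, a syntrophin adaptor of the dystrophin complex, differed by -0.72 and SH3PXD2A, the podosome scaffold TKS5, by -0.77, with vehicle number contrasts of -0.74 and -0.77. After block adjustment they were at 0.017 and 0.0023. SNTB1 was detected on 3 of the 6 MI-2 arrays. RBED1 differed by -0.84 with a vehicle number contrast of -0.034, and SMCHD1, a chromatin silencing protein, by -0.71 with -0.088. Their block-adjusted differences were -0.80 and -0.62, but RBED1 was detected on 4 and SMCHD1 on 3 of the 6 MI-2 arrays. C6ORF120 differed by -0.73 (vehicle number contrast -0.30, block-adjusted -0.42) and C5ORF13 by -0.71 (-0.34 and -0.37). BPGM, which makes the bisphosphoglycerate of red cells, differed by -0.65 (-0.21 and -0.44), and PNMA2 by -0.75 (-0.63 and -0.12).

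Among the listed parts of the pathway the compounds aim at, no mRNA stood out in the mean over the lines, where opposite moves can cancel. A member may still differ by as much as its interval allows. MALT1 was at 7.44, 6.97 and 6.94 with MI-2 and 7.27 with z-VRPR-fmk in HBL-1, and at 7.0, 7.18 and 7.18 with MI-2 and 6.92 with z-VRPR-fmk in TMD8. In HBL-1 the z-VRPR-fmk value lay within the MI-2 range, and in TMD8 it lay below it and below all vehicle arrays, which were at 6.94 to 7.26. The difference was 0.03 for MALT1 (95% interval -0.36 to 0.41) and 0.02 for BCL10 (-0.39 to 0.44). Of 23 measured genes of the CBM complex and of IKK activation, 10 were higher and 13 lower, 0 had an unadjusted p under 0.05, and the median difference was -0.025. Over all genes 8635 were higher and 8949 lower, with a median of -0.0042, and 2.34% were higher and 3.45% lower at that unadjusted p.

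The NF-kB target genes leaned towards MI-2 over z-VRPR-fmk. Of 50 measured, 38 were higher and 12 lower, 12 were higher at an unadjusted p under 0.05 and 0 lower, and 0 passed after adjustment. At that unadjusted p, 2.34% of all genes were higher and 3.45% lower. Their median difference was 0.18, with 0.24 in HBL-1 and 0.14 in TMD8. In 11 of the 50 all MI-2 arrays lay above the z-VRPR-fmk array in both lines, and in 0 all lay below, against 6.44% and 7.77% of all genes. In 6 of the 50 the z-VRPR-fmk array was below every other array of its line in both lines, against 1.76% of all genes. The vehicle number contrast had a median of 0.13 over the list, and after block adjustment 33 were higher and 17 lower with a median of 0.081. The list's median was 0.013 for MI-2 minus vehicle and -0.21 for z-VRPR-fmk minus vehicle, 2 contrasts that share the vehicle arrays. Against vehicle array 4 alone, the z-VRPR-fmk median was -0.10.

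TNF, the cytokine, was at 8.22, 7.05 and 7.65 with MI-2 and 6.56 with z-VRPR-fmk in HBL-1, and at 11.15, 10.74 and 11.15 with MI-2 and 10.09 with z-VRPR-fmk in TMD8. Vehicle array 4 was at 7.43 in HBL-1 and 10.19 in TMD8, the TMD8 value lying close to z-VRPR-fmk. The difference was 1.0 (SE 0.255, adjusted p = 0.71), and the block-adjusted one 0.46. NFKBIA, the NF-kB inhibitor IkB-alpha and a direct target, was at 11.76, 11.46 and 11.45 with MI-2 and 11.15 with z-VRPR-fmk in HBL-1. In TMD8 it was at 11.93, 11.65 and 11.98 with MI-2 and 11.55 with z-VRPR-fmk. The z-VRPR-fmk arrays were below every MI-2 and vehicle array of their line, but only just below the lowest vehicle value. That value was 11.16 in HBL-1 and 11.61 in TMD8. The difference was 0.36 (95% interval 0.01 to 0.70, adjusted p = 0.839), the vehicle number contrast -0.081 and the block-adjusted difference 0.44.

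NFKBIZ, the nuclear regulator IkB-zeta, had the z-VRPR-fmk array lowest in both lines, at 10.19 in HBL-1 and 11.34 in TMD8. The MI-2 values were at least 10.61 in HBL-1 and 11.40 in TMD8, and the vehicle values at least 10.25 and 11.52. Its difference was 0.41 (adjusted p = 0.806; block-adjusted 0.32), although a second probe gave 0.10. TNFAIP3, which encodes the deubiquitinase A20, differed by 0.48 (95% interval -0.02 to 0.98; block-adjusted 0.33). The costimulatory receptors CD40 and CD86 differed by 0.58 and 0.71, but by 0.067 and 0.15 after block adjustment. IRF4, the transcription factor on which ABC-type DLBCL depends, differed by 0.79 in HBL-1 and by -0.066 in TMD8. Intervals for BCL2A1 (-0.20 to 0.64), RELB (-0.34 to 0.30), CYLD (-0.36 to 0.70), IL6 (-0.43 to 0.76), IL10 (-0.21 to 0.42), MYC (-0.35 to 0.48), CCND2 (-0.44 to 0.45) and CCL3 (-0.51 to 0.96) all held 0.

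**Figure D3:**
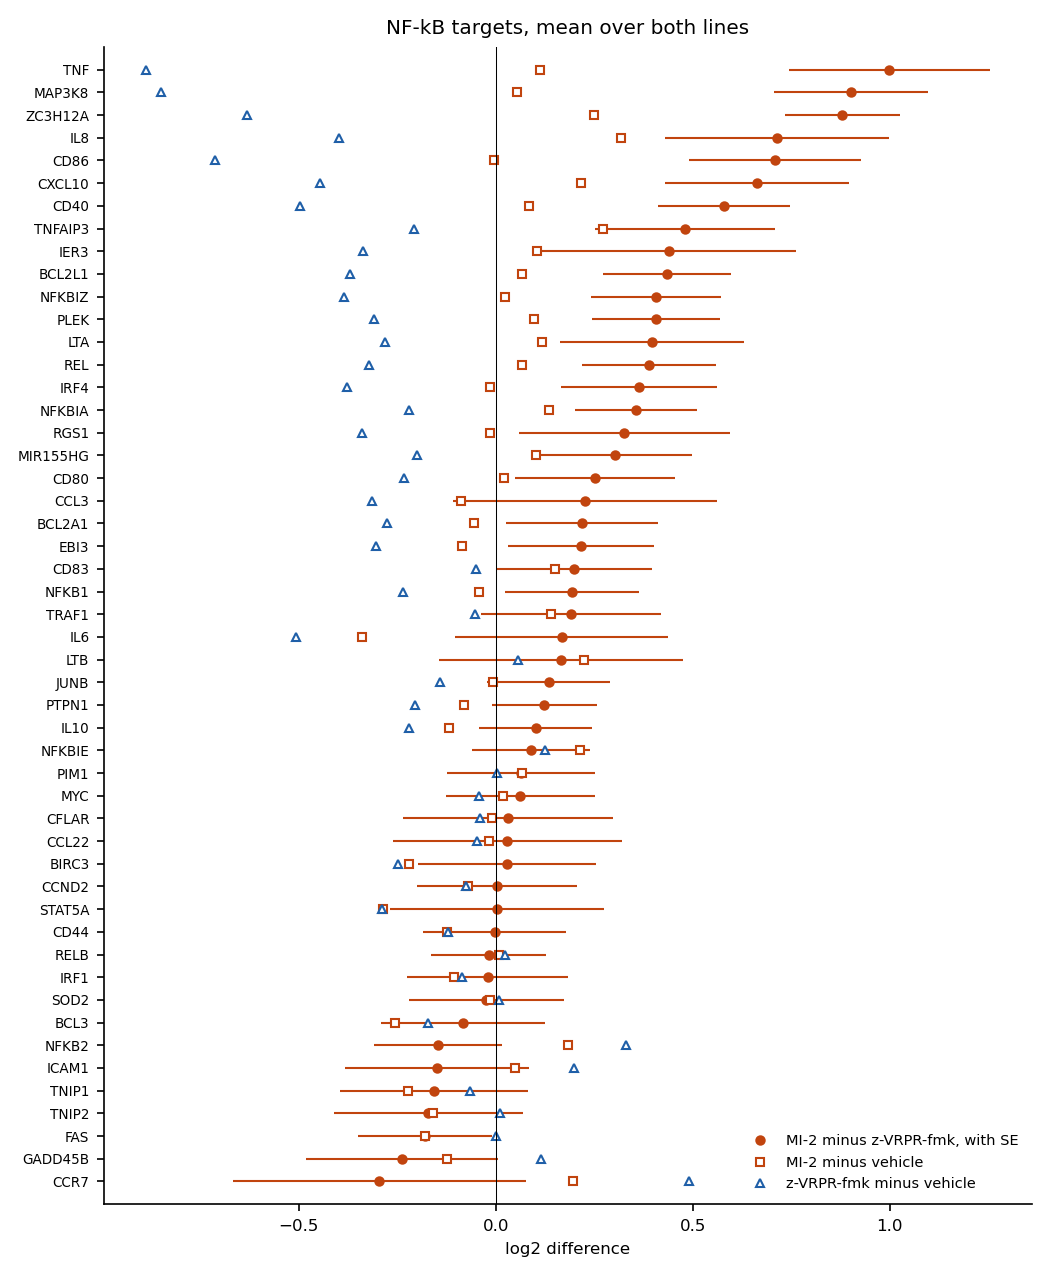
The 50 measured NF-kB targets, ordered by MI-2 minus z-VRPR-fmk (filled circles, with bars of 1 SE), beside MI-2 minus vehicle (open squares) and z-VRPR-fmk minus vehicle (open triangles), in log2 and averaged over the lines. Most circles in the upper part of the plot pair a square near 0 with a triangle below 0, as for TNF, MAP3K8 and CD86. Each circle is the square minus the triangle, and each triangle rests on 1 z-VRPR-fmk array per line. Ordering by the circle therefore favours low triangles at the top, so this pairing is no separate result. None of these points takes account of array number. The vehicle number contrast was 0.54 for TNF, 0.69 for MAP3K8 and 0.56 for CD86, and the block-adjusted differences were 0.46, 0.21 and 0.15.

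Of the 13 measured mRNAs known as targets of Regnase-1 or Roquin, 11 were higher and 2 lower, with a median of 0.39, 0.12 in HBL-1 and 0.26 in TMD8. At an unadjusted p under 0.05, 5 were higher (against 2.34% of all genes): ZC3H12A, TNF, NFKBIZ, NFKBID, an IkB family member, and REL, an NF-kB subunit. The first 3 and REL also belong to the NF-kB list. After block adjustment 12 were higher and the median was 0.22, and the median was 0.12 without the TMD8 z-VRPR-fmk array and 0.081 with the authors' values. Of 13 measured genes listed here as MALT1 substrates, 7 were higher and 6 lower, with a median of 0.025. That median was -0.094 without the TMD8 z-VRPR-fmk array, and -0.058 relative to all genes with arrays scaled to equal medians. Among 27 chemokines, cytokines and receptors the median was 0.17, with 0.015 after block adjustment and 0.077 without TMD8 MI-2 array 3. CCL4L2, a chemokine of the CCL4 family whose probe may also read its near-identical copies, was at 7.79, 7.72 and 8.95 with MI-2 and 5.84 with z-VRPR-fmk in TMD8, where vehicle array 4 was at 6.27 and the other vehicle arrays at 8.00 to 8.97. Its low TMD8 values thus sat on both arrays numbered 4.

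Genes that answer stress in the endoplasmic reticulum leaned towards MI-2 over z-VRPR-fmk, with a smaller median in the vehicle number contrast. That contrast ranged over single members between -0.35 for ERN1, a stress sensor, and 0.36 for PDIA4, a folding enzyme. Of 27 unfolded protein response genes measured, 24 were higher and 3 lower, and 0 passed after adjustment. At an unadjusted p under 0.05, 6 were higher, against 2.34% of all genes. The median was 0.26, with 0.34 in HBL-1 and 0.24 in TMD8, against 0.074 for the vehicle number contrast, and it was 0.19 after block adjustment. The list's median was 0.26 for MI-2 minus vehicle and -0.0038 for z-VRPR-fmk minus vehicle. In 10 members all MI-2 arrays lay above the z-VRPR-fmk array in both lines, against 6.44% of all genes.

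ARMET (now MANF), a factor secreted under such stress, was at 10.82 to 11.01 with MI-2 and 10.30 with z-VRPR-fmk in HBL-1, with vehicle at 10.13 to 10.46. TMD8 had 10.71, 10.78 and 11.15 with MI-2 and 10.62 with z-VRPR-fmk, with vehicle at 10.44 to 10.73. The MI-2 arrays were the highest of HBL-1, and in TMD8 their lowest value lay within the vehicle range. The difference was 0.45 (SE 0.167, adjusted p = 0.803; block-adjusted 0.35). DERL2, which helps export misfolded proteins, differed by 0.60, the co-chaperone DNAJB11 by 0.46, the chaperone CALR by 0.40 and the master chaperone HSPA5 by 0.55, and their block-adjusted differences were 0.37, 0.37, 0.15 and 0.48.

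DDIT3 (CHOP), a transcription factor of the integrated stress response, was at 6.78, 7.38 and 6.64 with MI-2 and 6.21 with z-VRPR-fmk in HBL-1. TMD8 had 5.92, 5.97 and 6.57 with MI-2 and 5.36 with z-VRPR-fmk. The vehicle arrays spanned 5.74 to 6.52 in HBL-1 and 5.33 to 6.30 in TMD8, so z-VRPR-fmk lay inside and the HBL-1 MI-2 arrays above the vehicle range. The difference was 0.76 (SE 0.225, adjusted p = 0.727; block-adjusted 0.45). Of 37 genes of the amino acid and integrated stress response, 29 were higher and 8 lower with a median of 0.15, but the lines differed in it, with 0.28 in HBL-1 and -0.033 in TMD8. MARS, the methionyl-tRNA synthetase, differed by 0.43. TRIB3, a pseudokinase induced by this response, differed by 0.22 (95% interval -0.24 to 0.67).

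The immediate early genes of MAP kinase and AP-1 signalling had a median of 0.31, with 16 of 23 higher and 7 lower. At an unadjusted p under 0.05, 5 were higher, against 2.34% of all genes. DUSP1, a phosphatase that switches MAP kinases off, was at 6.62, 6.55 and 6.34 with MI-2 and 6.18 with z-VRPR-fmk in HBL-1, and at 6.49, 6.43 and 6.68 with MI-2 and 5.64 with z-VRPR-fmk in TMD8. Vehicle values of 5.91 to 6.58 in HBL-1 and 5.76 to 6.75 in TMD8 overlapped the MI-2 values. Its difference was 0.61 and its block-adjusted difference 0.57. JUN, an AP-1 subunit, differed by 0.60 (block-adjusted 0.50). DUSP10 differed by 0.52 on the probe used and by -0.11 and -0.05 on its other probes, and DUSP5 by 0.69 but by -0.49 after block adjustment. The list's median was 0.10 after block adjustment and 0.069 with the authors' values.

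Several lists with a clear lean had the same lean in the vehicle number contrast. Of 33 mitosis genes, 31 were lower and 2 higher with a median of -0.30, and the vehicle number contrast also had a median of -0.30; after block adjustment 19 were lower and 14 higher, with a median of -0.027. HMMR, a spindle protein, was at most at 10.42 with MI-2 and at 10.67 with z-VRPR-fmk in HBL-1, where vehicle array 4 was at 10.57. TMD8 had 9.0, 8.99 and 8.65 with MI-2 and 9.42 with z-VRPR-fmk, where vehicle array 4 was at 9.30. Both arrays numbered 4 thus stood above the MI-2 arrays of each line. The S phase genes behaved alike, with 27 of 32 lower, a median of -0.17, a vehicle number median of -0.20 and a block-adjusted median of 0.046. The median was -0.085 without HBL-1 MI-2 array 2.

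All 14 measured genes of MHC class II antigen presentation were lower with MI-2, with a median of -0.36. The medians were -0.75 in TMD8 and -0.027 in HBL-1, the vehicle number contrast had -0.32, and the block-adjusted median was -0.093. HLA-DOA, which tunes peptide loading, was at 6.84, 7.43 and 7.33 with MI-2 and 8.00 with z-VRPR-fmk in HBL-1, and at 6.38, 7.13 and 7.87 with MI-2 and 8.41 with z-VRPR-fmk in TMD8. Vehicle array 4 was at 7.76 in HBL-1 and 7.95 in TMD8, the highest vehicle value of each line. HLA genes are near-identical copies of each other in part, and the probes may read more than one.

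The metallothioneins, which bind zinc, and the interferon response genes had medians of opposite sign with and without block adjustment. All 9 measured metallothionein and zinc export genes were higher in the mean over the lines, with a median of 0.33. The median was 0.64 in HBL-1 and -0.0023 in TMD8, each line resting on its single z-VRPR-fmk array. It stood against 0.81 in the vehicle number contrast and -0.17 after block adjustment. MT2A was at 9.21, 9.51 and 7.48 with MI-2 and 6.63 with z-VRPR-fmk in HBL-1, and vehicle arrays 1 to 4 were at 9.13, 9.79, 7.38 and 6.83. In HBL-1, arrays of the same number thus had like levels whatever the treatment. Of 34 interferon response genes 23 were higher with a median of 0.13, against 0.43 in the vehicle number contrast and -0.41 after block adjustment; it was -0.0091 without TMD8 MI-2 array 1.

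**Figure D4:**
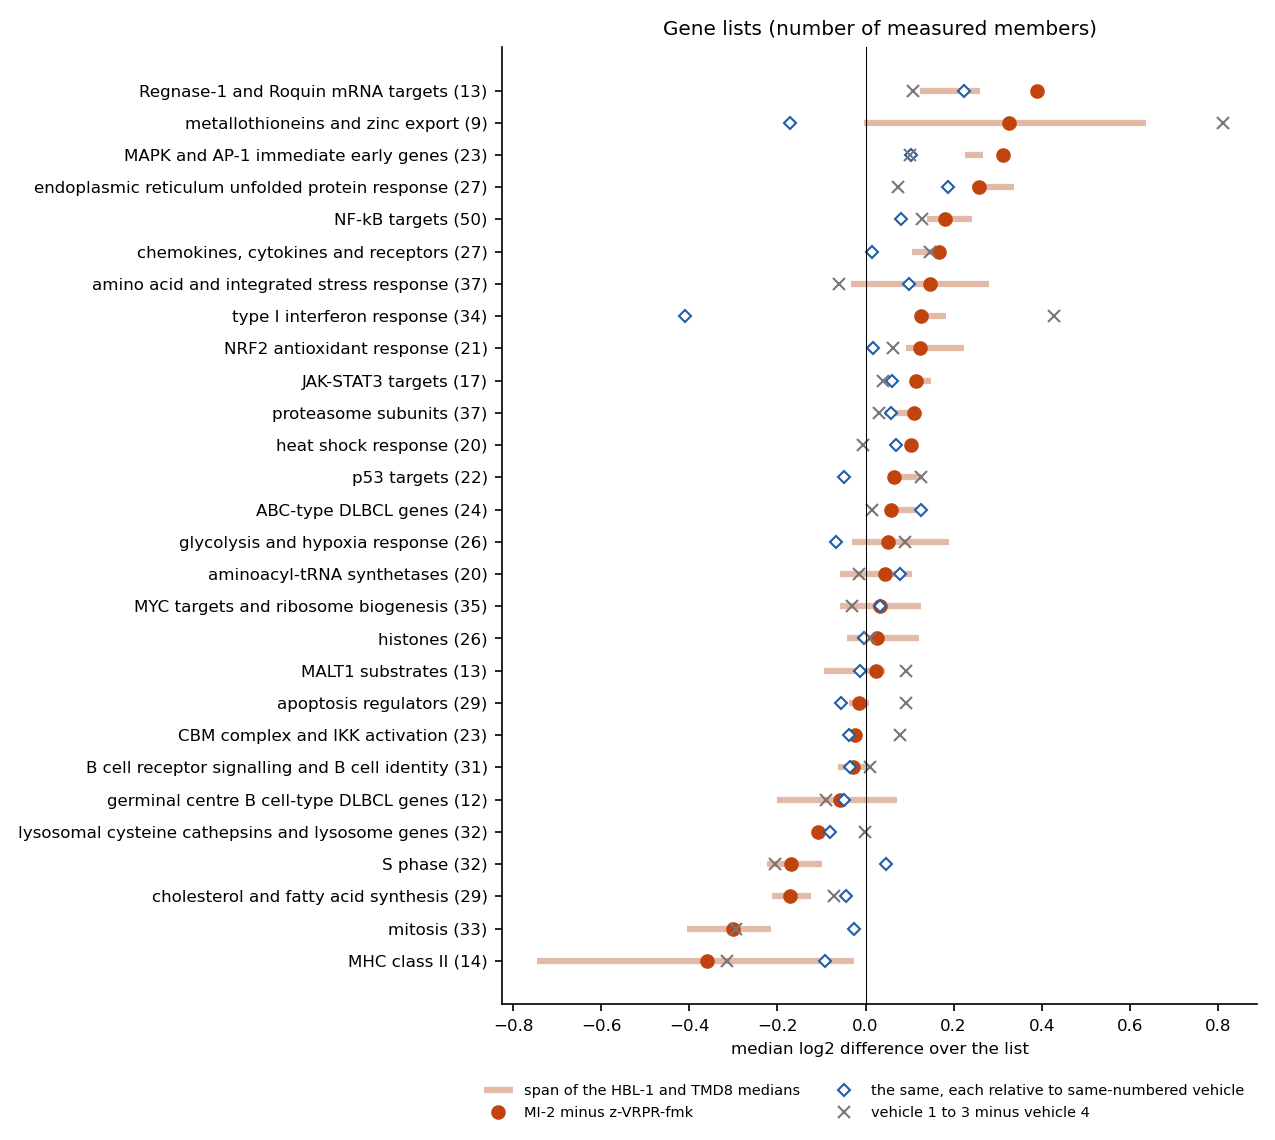
Median log2 difference over each gene list for MI-2 minus z-VRPR-fmk (filled circles), with a bar spanning the HBL-1 and TMD8 medians, beside the block-adjusted median (open diamonds) and the vehicle 1 to 3 minus vehicle 4 median (crosses). The circle and the cross nearly coincide at -0.30 for mitosis, while for the unfolded protein response the circle is at 0.26 and the cross at 0.074. With arrays scaled to equal medians, the lists of ABC-type, glycolysis, MYC, p53, aminoacyl-tRNA synthetase and MALT1 substrate genes, all near 0, turned sign relative to all genes.

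VPREB3, a surrogate light chain partner and a germinal centre-type gene, was a gene in which the MI-2 arrays lay away from vehicle and the z-VRPR-fmk arrays did not. In HBL-1 it was at 6.51, 5.72 and 6.41 with MI-2, at 7.55 with z-VRPR-fmk and at 7.43 to 7.81 with vehicle. In TMD8 it was at 4.24, 4.34 and 4.27 with MI-2, at 4.61 with z-VRPR-fmk and at 4.55 to 5.07 with vehicle, near the lower end of the scale. The MI-2 arrays were the lowest of both lines, and it was detected on 3 of the 6 MI-2 arrays and 1 of the 2 z-VRPR-fmk arrays. The difference was -0.83 (SE 0.249, 95% interval -1.38 to -0.28, adjusted p = 0.727), and -0.92 after block adjustment, with 0.088 for the vehicle number contrast. It was -1.34 in HBL-1 and -0.33 in TMD8, each resting on a single z-VRPR-fmk array. The MI-2 and vehicle means also lay further apart in HBL-1, at 6.21 and 7.63, than in TMD8, at 4.28 and 4.82. The cause of this gap between the lines was not tested.

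Lysosomal genes, among them the cysteine cathepsins, were lower with MI-2 in 21 of 32 and higher in 11, with a median of -0.11. In 10 of them all MI-2 arrays lay below the z-VRPR-fmk array in both lines, and in 0 all lay above, against 7.77% and 6.44% of all genes. The vehicle number median was -0.0019 and the block-adjusted median -0.080, and the median was -0.070 without TMD8 MI-2 array 3. The proteases CTSH and CTSL1 differed by -0.45 (block-adjusted -0.09) and -0.35 (-0.49), while CTSB differed by 0.01 (95% interval -0.32 to 0.35).

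The last comparison asked whether MI-2 and z-VRPR-fmk differed otherwise in TMD8 than in HBL-1. Across genes the within-line differences correlated weakly, with Pearson's r of 0.13 and Spearman's rho of 0.129 over 17584 genes, each line resting on 1 z-VRPR-fmk array. The test of the line difference called 1 gene (0.00569%), PTPRU, a receptor-type tyrosine phosphatase. It was at 4.27, 4.35 and 4.44 with MI-2 and at 7.13 with z-VRPR-fmk in TMD8, and between 4.38 and 4.83 with vehicle. In HBL-1 it was at 4.56, 4.26 and 4.62 with MI-2, at 4.20 with z-VRPR-fmk and at 4.17 to 4.99 with vehicle. A single array, TMD8 with z-VRPR-fmk, was high. PTPRU was not detected on any MI-2 array, so z-VRPR-fmk was at least 5.52-fold higher than MI-2 in TMD8, a bound that rests on that array. The fitted line difference, TMD8 minus HBL-1, was -3.05 (limma adjusted p = 0.0405), but it is taken against levels not above background and is no measured size. A second probe of PTPRU differed between the compounds by -0.02 over both lines. MIR1974, DDN and BHLHB2 had the smallest p among genes with a higher difference in TMD8 and did not pass. MIR1974 was at 9.0, 9.08 and 9.18 with MI-2 and 7.32 with z-VRPR-fmk in TMD8, where vehicle array 4 was at 8.03, and at 6.79 to 7.15 with MI-2 and 6.98 with z-VRPR-fmk in HBL-1.

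**Figure D5:**
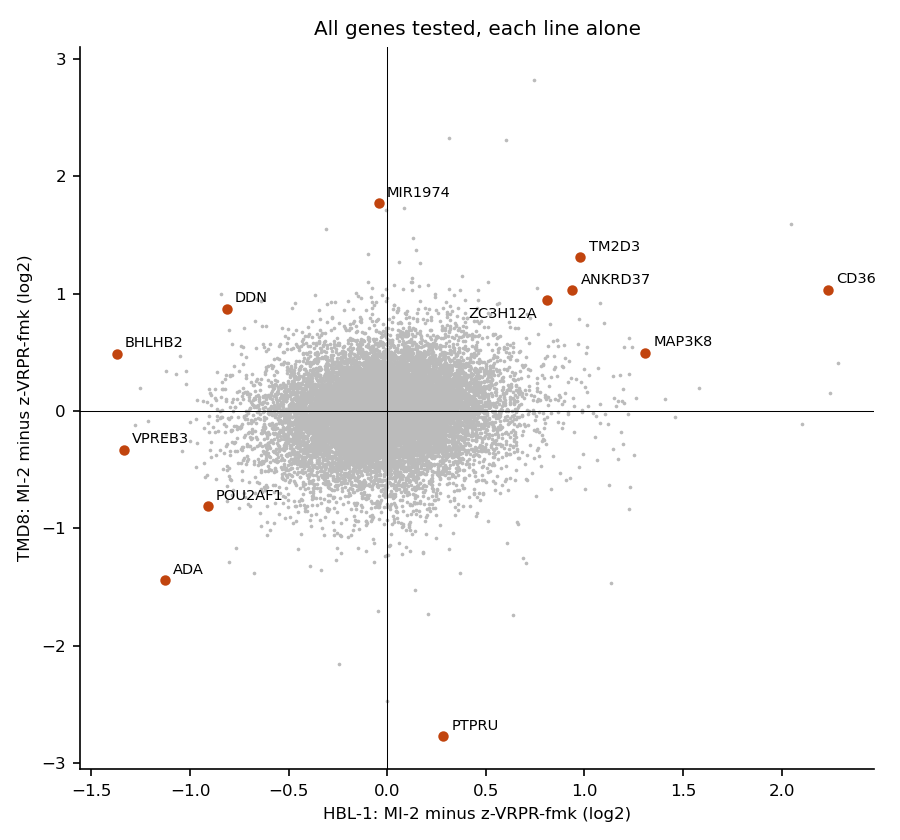
MI-2 minus z-VRPR-fmk in HBL-1 (horizontal axis) against the same in TMD8 (vertical axis), both in log2, with one grey point per gene tested and named genes in orange. TM2D3, ANKRD37, ZC3H12A, ADA and POU2AF1 lie near the diagonal, CD36 and MAP3K8 are larger in HBL-1, and PTPRU is the lowest point.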

How the data were processed

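Per the file headers, the authors deposited linear intensities with a detection p-value per probe, and a table of log2 values per named gene whose processing is not stated. The submitters' processing notes name Partek and give no version. Intensities carry probe identifiers only, so gene names were joined by matching values: 34682 of 34687 genes matched within 0.02 log2 over 16 arrays (3 after shuffling arrays), 26217 to a single probe and 8465 to several. Names are the files' own, of which 17583 are current RefSeq symbols, 2321 only synonyms and 14778 neither. The 41 unmatched probes and 92 spike-in controls were left out. The sources used here give no probe annotation, slide or build.

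Intensities were background-corrected with limma's neqc (version 3.58.1, R 4.3.3; offset 16, background inferred from detection p-values), quantile normalized over 16 arrays and log2-transformed. A probe was kept if detected (p under 0.05) on 3 or more arrays (22426 probes), and the probe with the highest mean represented a gene (17584 genes, 3718 with other passing probes). The test was limma's lmFit and eBayes over the 8 arrays with line as a term (5 residual degrees of freedom), two-sided, with Benjamini-Hochberg adjustment over all genes at 0.05. The line difference used 4 group means (4 residual degrees of freedom), and the lone z-VRPR-fmk arrays were assumed to vary like the MI-2 arrays. Precision is limited by how few arrays there are, and the median SE was 0.173. The code was tested on simulated data.

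Deviations of MI-2 and vehicle arrays of the same number and line correlated at 0.177 to 0.328 over 6 pairs, against -0.237 to -0.0736 between numbers. Each deviation is from its own group's mean, so positive values within numbers push those between numbers below 0. The second range is therefore no independent check. The numbers were therefore taken to pair the arrays, a hint from the data, as no label states it. This could not be checked for the single z-VRPR-fmk array of a line.

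Named genes met all of: MI-2 arrays on one side of z-VRPR-fmk in both lines, detection on at least 4 of 8 arrays, and either an adjusted p under 0.05 or, filling up to 10 per direction, the smallest p. For the line difference the genes past the threshold, or else the 3 of smallest p per direction, were named, with a set of pathway genes and up to 3 members per list. CD40, CD86, NFKBID, REL, HSPA5, ERN1, PDIA4, JUN and SREBF2 lie outside these rules and were named after their values were seen. Some items are not reported here. Lists got counts and medians, not tests. The members and lists were chosen with earlier results of these data known. Alternatives were background correction, scaling, the authors' values, offset, filters, probe choice, variance model, arrays in the fit, the replicate block and leaving out each array.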

Additional observations from a re-analysis of the deposited data

Results flagged for a closer look

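Of 92 groups of 4 vehicle arrays tested for a lone far value among the named genes, 5 had one, where chance gives about 1 in 20. The gap to the nearest array, as a share of the group's range, was 0.875 for TGFBRAP1 in TMD8 (5.84 on vehicle array 2, the others at 6.78 to 6.92). It was 0.895 for ZBP1 in TMD8 (4.87 on array 4, the others at 5.47 to 5.54) and 0.88 for RNF122 in HBL-1 (4.91 on array 4, the others at 5.34 to 5.39). It was 0.915 for IRF4 in HBL-1 (9.37 on array 1, the others at 8.75 to 8.80) and 0.985 for NFKBIZ in TMD8 (11.86 on array 1, the others at 11.52 to 11.53).

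The difference MI-2 minus z-VRPR-fmk went opposite ways in the lines, with no overlap within either, for CCL3, MYC, CTSB, DDN and BHLHB2, in none of which the line difference passed (limma adjusted p = 1 for each). Over all 17584 genes, 1765 lay on opposite sides in the lines in this way. TMD8 minus HBL-1 was 1.06 for the chemokine CCL3, detected on 4 of 6 MI-2 arrays, and 0.50 for MYC. It was -0.37 for the protease CTSB, 1.69 for DDN and 1.86 for BHLHB2, the circadian and hypoxia-linked repressor now called BHLHE40. BHLHB2 was at 7.16, 7.73 and 7.26 with MI-2 and 8.76 with z-VRPR-fmk in HBL-1, and at 7.44, 7.80 and 7.67 with MI-2 and 7.15 with z-VRPR-fmk in TMD8. For PTPRU, the one gene past the threshold, it was -3.05, against levels not above background, and rested on the TMD8 z-VRPR-fmk array.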

How the results depend on the processing

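The count of genes past the adjusted threshold, 0 for MI-2 minus z-VRPR-fmk, was 4 with all 16 arrays in the fit (TM2D3, ANKRD37, ZC3H12A, PTPRU), 5 with trended and robust eBayes (TM2D3, CD36, ANKRD37, ADA, POU2AF1), and 3 each (TM2D3, CD36, ADA) with the authors' values, an offset of 50 or no background correction. It was 0 under the replicate block, with 632 genes at an unadjusted p under 0.05. Leaving out 1 MI-2 array gave 0 each time, while leaving out a z-VRPR-fmk array left 1 array of that compound. The difference was then 2.24 for CD36 on the HBL-1 array and -2.77 for PTPRU on the TMD8 array. Each rests on that array, and the PTPRU value is taken against levels not above background. The line difference, 1 gene, was 2, PTPRU included, with all 16 arrays, trended eBayes, an offset of 50, neqc over 8 arrays or no background correction. It was 0 with arrays scaled to medians, the authors' values, the probe mean, no or a strict filter, or the replicate block, with 169 to 1541 genes at an unadjusted p under 0.05. Leaving out MI-2 arrays gave 0 to 1. The vehicle number contrast gave 0 throughout, with 522 to 1242 genes at an unadjusted p under 0.05. PTPRU passed in 6 of 16 alternatives (adjusted p 0.00552 to 1).

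Signs turned under the replicate block for ADA (0.066), BCL10 (-0.037), CCL3 (-0.66), CYLD (-0.012), HMOX1 (-0.052), MALT1 (-0.091), RELB (0.049), SH3PXD2A (0.0023) and SNTB1 (0.017). Scaling to medians moved the median gene by -0.171, and BCL10 (-0.23), CCND2 (-0.24), CTSB (-0.28), IL10 (-0.17), MALT1 (-0.26), MYC (-0.20) and TRIB3 (-0.060) turned. They turned with the authors' values for BCL10 (-0.010), CCND2 (-0.046) and CYLD (-0.011), and with the probe mean for BCL10 (-0.12), CCND2 (-0.054) and MYC (-0.0038). Leaving out arrays gave BCL10 -0.072 to 0.12, CCL3 -0.31 to 0.76, CCND2 -0.12 to 0.076, CTSB -0.17 to 0.20, CYLD -0.089 to 0.43, IRF4 -0.066 to 0.79, MALT1 -0.15 to 0.20, MYC -0.19 to 0.31 and RELB -0.10 to 0.070. The cause of these moves was not tested. Recomputed list medians moved by less than the spread between arrays in 463 cases and by more in 69. Each line has 1 z-VRPR-fmk array, so no result has a replicate check of that compound within a line.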

Other observations

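Genes of cholesterol and fatty acid synthesis were lower with MI-2 than with z-VRPR-fmk in 24 of 29 and higher in 5, with a median of -0.17, against -0.073 for the vehicle number contrast and -0.045 after block adjustment. IDI1, an enzyme of isoprenoid synthesis, was at 8.26, 8.22 and 8.08 with MI-2 and 8.65 with z-VRPR-fmk in HBL-1, where vehicle spanned 7.89 to 8.45. In TMD8 it was at 8.76, 9.05 and 9.34 with MI-2 and 9.67 with z-VRPR-fmk, where vehicle spanned 8.66 to 9.42. The z-VRPR-fmk arrays were the highest of both lines, and the difference was -0.55 (SE 0.168, limma adjusted p = 0.727; block-adjusted -0.49). SREBF2, the transcription factor that drives these genes, differed by -0.37 (block-adjusted -0.51) and was detected on 2 of 6 MI-2 arrays and both z-VRPR-fmk arrays.

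Of 37 proteasome subunits 28 were higher and 9 lower. Their median was 0.11, with 0.058 after block adjustment and 0.044 without the HBL-1 z-VRPR-fmk array. In 5 of them the z-VRPR-fmk array was the lowest of both lines, against 1.76% of all genes. ALDOC, an aldolase of glycolysis, was at 10.65, 10.79 and 9.63 with MI-2 and 8.11 with z-VRPR-fmk in HBL-1, where vehicle arrays 1 to 4 were at 10.62, 10.57, 9.47 and 8.21. The TMD8 MI-2 values were 9.5, 9.01 and 11.01, a range that held the z-VRPR-fmk value of 9.69. The mean difference of 1.2 was made up of 2.25 in HBL-1 and 0.15 in TMD8, and the block-adjusted difference was 0.015.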
